A study of Mus musculus with 14 samples.

Results

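10 genes of contractile muscle were followed through epithelium preparations of the mouse urethra and bladder: Acta1, Actc1, Ckm, Myh3, Myh8, Myl1, Mylpf, Tnnt3, Tnnc2 and Myog. They are 10 of the 55228 genes in each count table, all 10 were found by symbol, and they were picked from earlier results of these same libraries because the urethra carries a striated sphincter. Their own levels and differences are therefore given as a description. They were fitted with all other genes, and how many of them pass the threshold is printed beside the share over all genes, but in no comparison is anything read from it. The tests that are read are of 89 other skeletal muscle genes, gene by gene. Both tissues came from untreated wild-type CD-1 female embryos, and each library holds the epithelium that was pulled mechanically from the mesenchyme after trypsin digestion and pooled over the females of a litter. RNA-seq was done on 3 urethral and 3 bladder libraries at E18.5 and on 4 urethral and 4 bladder libraries at E14.5, where E counts days of embryonic development. The extraction notes give 3 litters for every kind of sample, so the 4 libraries of a tissue at E14.5 were taken as separate litters from the design text.

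Skeletal muscle is built from thin filaments of actin with troponin and thick filaments of myosin, and the fibres are fed by creatine kinase. Its precursors carry the transcription factors Pax7 and Myf5, commit through Myod1 and differentiate through myogenin, the product of Myog. Developing fibres use embryonic and perinatal myosin heavy chains before the adult ones. The urethra is ringed by such striated muscle as well as by smooth muscle, whereas the bladder wall is smooth muscle, marked by the actin Acta2 and the myosin heavy chain Myh11.

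The 10 genes did not behave as 1 set. Myog, Myh3, Mylpf and Myl1 were highest in E18.5 urethra. Acta1, Actc1, Ckm and Tnnt3 were highest in E18.5 bladder, in libraries where Myog had 10, 7 and 19 reads, Pax7 stood at 0.0984 CPM or less and Myod1 at 0.0761 to 0.0984 CPM (reads scaled to the same total of counts in every library). For the E18.5 bladder the data thus go against the name skeletal muscle, and the genes are called by their symbols or as the 10 muscle genes below. Tnnc2 and Myh8 overlapped between the tissues at that stage, and the lowest bladder library of Actc1 fell just inside the urethral range.

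The sequences just upstream of the transcription start of 4 of these genes are shown because they contrast the genes highest in bladder (Acta1 and Actc1) with those highest in urethra (Myh3 and Myog). Each run is the 250 bases before the start in RefSeq (GRCm38.p6), read 5′ to 3′ on the strand of the gene, with matches to a CArG box, a MEF2 site, CAGCTG or TATAAA in capitals. Acta1 is chr8:123894776-123895025 on the minus strand, Actc1 is chr2:114052876-114053125 on the minus strand, Myh3 is chr11:67078050-67078299 on the plus strand and Myog is chr1:134289754-134290003 on the plus strand.
Acta1: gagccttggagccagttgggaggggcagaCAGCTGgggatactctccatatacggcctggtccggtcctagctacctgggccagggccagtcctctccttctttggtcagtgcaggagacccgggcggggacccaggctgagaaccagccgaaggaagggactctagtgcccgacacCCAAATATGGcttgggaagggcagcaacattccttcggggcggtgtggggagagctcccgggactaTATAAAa
Actc1: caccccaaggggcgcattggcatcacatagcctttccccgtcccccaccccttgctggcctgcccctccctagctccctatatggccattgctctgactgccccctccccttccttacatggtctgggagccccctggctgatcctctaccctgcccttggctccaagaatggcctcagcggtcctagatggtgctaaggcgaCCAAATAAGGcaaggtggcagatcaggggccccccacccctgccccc
Myh3: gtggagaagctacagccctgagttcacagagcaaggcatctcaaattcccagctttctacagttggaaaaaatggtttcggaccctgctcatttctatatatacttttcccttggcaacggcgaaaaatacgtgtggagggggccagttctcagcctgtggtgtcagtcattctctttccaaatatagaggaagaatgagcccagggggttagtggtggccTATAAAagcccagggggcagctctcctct
Myog: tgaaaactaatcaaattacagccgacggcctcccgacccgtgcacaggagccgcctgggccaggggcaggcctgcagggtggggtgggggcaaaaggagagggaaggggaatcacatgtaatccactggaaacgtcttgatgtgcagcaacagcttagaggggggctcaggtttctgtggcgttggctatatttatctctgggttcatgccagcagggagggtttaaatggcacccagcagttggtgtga

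Both strands were searched for the CArG box, the binding sequence of serum response factor, the MEF2 site, the E boxes CAGCTG and CANNTG, and TATAAA; every CAGCTG is also a CANNTG. The table held 9 of the 10 genes, all but Tnnt3. A CArG box was found in 2 of them, from base -73 to -64 in Acta1 (CCAAATATGG) and from base -47 to -38 in Actc1 (CCAAATAAGG), counted back from the RefSeq start. Such a box was found in 1.40% of the 27025 windows of the same length in the table. Acta1, Myl1, Mylpf and Ckm held CAGCTG, against 12.8% of all windows, so that element was found in genes of both patterns. The MEF2 site was searched as YTAWWWWTAR, where Y is C or T, W is A or T and R is A or G. This pattern matched in 3.01% of windows. Of the 9 genes it matched in Myh8 alone, where it overlaps a TATAAA match on the other strand. TATAAA was in Acta1, Myh3, Myh8 and Myl1 and in 13% of windows, and CANNTG was in 8 of the 9 genes, all but Actc1, and in 66.0% of windows. These are letter matches only. Myog holds no match to the 3 other capitalised elements or to this MEF2 pattern, which its stretch ctatatttat misses by the last base. Of the 9 genes, the RefSeq start is the outer end of the gene in the count table for Myh3 and Myh8 alone.

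The libraries held 21.1M to 36.8M counts. Epcam, an epithelial adhesion gene, stood at 545 to 609 CPM in E18.5 urethra, at 241 to 340 CPM in E18.5 bladder, at 328 to 505 CPM in E14.5 urethra and at 428 to 477 CPM in E14.5 bladder. Other epithelial genes did not all follow it at E18.5. The keratin Krt8 had 1185 to 1787 CPM in urethra and 1895 to 3382 CPM in bladder. The sum of 10 epithelial genes was 7801 to 8745 CPM in E18.5 urethra and 7902 to 11636 CPM in E18.5 bladder. Of these 10, 4 passed as higher in urethra, 2 as lower and 4 did not pass. Col1a1, the fibroblast collagen, stood at 1291 to 1513 CPM in E18.5 urethra and at 6076 to 9555 CPM in E18.5 bladder, so the preparations held RNA of the layer below the epithelium, and unequally at E18.5. In such bulk libraries, fewer cells of a type and less RNA per cell cannot be told apart. The summed level of 10 smooth muscle genes was 1226 to 2672 CPM in E18.5 urethra and 5672 to 14790 CPM in E18.5 bladder. The sum of 9 fibroblast and mesenchyme genes was 4188 to 4963 CPM in E18.5 urethra and 18770 to 28340 CPM in E18.5 bladder. Urethra E14.5 replicates 1 and 3 stood apart from replicates 2 and 4 in the muscle genes, and the differences of the 10 genes that rest most on them are given with and without them.

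**Figure D1:**
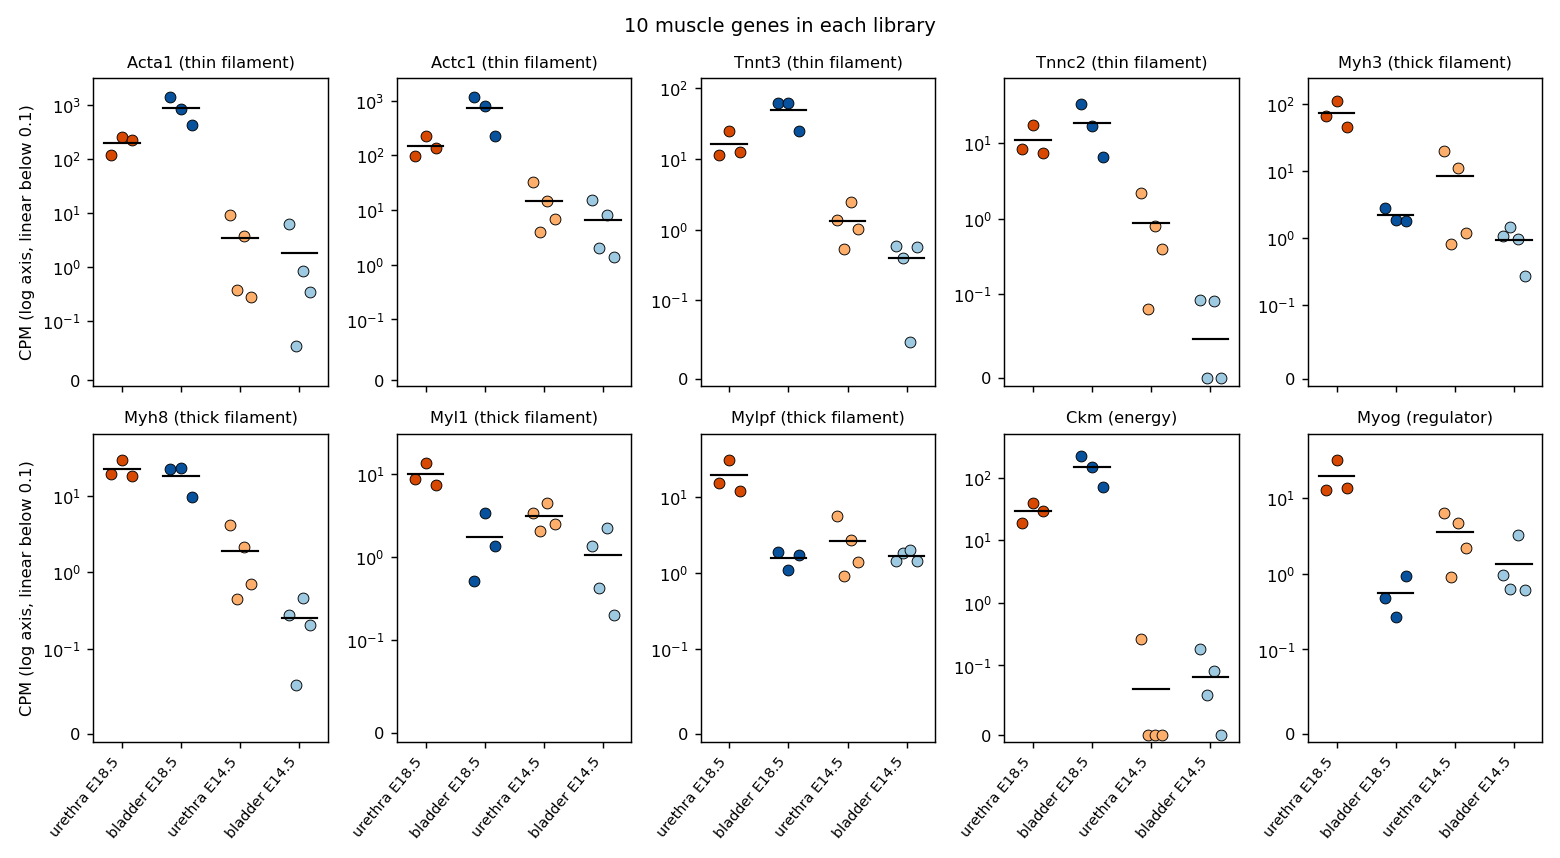
Level of each of the 10 muscle genes in CPM (log axis, linear below 0.1) in every library, by tissue and stage. Points are libraries and the line is the group mean; Myh3 and Myog are highest in E18.5 urethra, with 45.7 to 111 and 12.7 to 31.8 CPM, and Acta1 and Ckm in E18.5 bladder, with 435 to 1423 and 69.9 to 224 CPM.

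Among the thin filament genes, Acta1 (chromosome 8, 123891769 to 123894751, GRCm38), the actin of adult skeletal muscle, had 118, 253 and 221 CPM in E18.5 urethra, against 1423, 841 and 435 CPM in E18.5 bladder. All 3 urethral libraries lay below all 3 bladder libraries, and the log2 fold change of urethra over bladder was -2.13 (SE 0.42). At E14.5 it had 9.15, 0.369, 3.77 and 0.276 CPM in urethra and 6.08, 0.0569, 0.828 and 0.336 CPM in bladder, which overlapped. Acta1 at E18.5 thus lay above every E14.5 library in both tissues.

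Actc1 (chromosome 2, 114047282 to 114053548), the cardiac actin that embryonic skeletal muscle also uses, had 96.6, 222 and 134 CPM in E18.5 urethra and 1153, 797 and 221 CPM in E18.5 bladder. The lowest bladder library fell just inside the urethral range, and the log2 fold change was -2.20 (SE 0.54). At E14.5 it had 32.0, 3.93, 14.8 and 6.89 CPM in urethra and 15.2, 2.05, 8.05 and 1.38 CPM in bladder. Taken per length, it had the highest mean of the 10 genes at E14.5 in both tissues.

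Tnnt3 (chromosome 7, 142498836 to 142516009), the fast troponin T, had 11.3, 25.0 and 12.6 CPM in E18.5 urethra and 62.9, 61.3 and 25.0 CPM in E18.5 bladder. The groups met at 25.0 CPM without crossing, and the log2 fold change was -1.54 (SE 0.39). At E14.5 it stood at 0.533 to 2.45 CPM in urethra and at 0.0460 to 0.589 CPM in bladder.

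Tnnc2 (chromosome 2, 164777161 to 164779967), the calcium sensor of fast fibres, had 8.28, 17.6 and 7.35 CPM in E18.5 urethra and 32.5, 16.8 and 6.54 CPM in E18.5 bladder, with overlap and a log2 fold change of -0.69 (SE 0.53). At E14.5 it had 50, 2, 20 and 10 reads in urethra and 3, 0, 2 and 0 reads in bladder. Its exons share 592 of 800 bases with Ube2c on the opposite strand, and the strand setting of the counting is not given in the sources used here. Ube2c stood at 79.8 to 131 CPM in the E14.5 bladder libraries where Tnnc2 had 0 to 3 reads.

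Ckm (chromosome 7, 19404776 to 19422841), the muscle creatine kinase, was almost absent at E14.5. It had 6, 0, 0 and 0 reads in E14.5 urethra and 6, 2, 2 and 0 reads in E14.5 bladder, and was too low to be fitted in the tissue comparison at that stage. At E18.5 it had 19.0, 39.3 and 29.4 CPM in urethra and 224, 146 and 69.9 CPM in bladder, with no overlap and a log2 fold change of -2.26 (SE 0.41). Of its 2913 exon bases, 451 are shared with the antisense gene A930016O22Rik, which stood at 0.951 CPM or less in all 14 libraries.

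Of the 4 thick filament genes, 3 stood higher in E18.5 urethra and Myh8 overlapped. Myh3 (chromosome 11, 67078300 to 67102291), the embryonic myosin heavy chain, had 67.3, 111 and 45.7 CPM in E18.5 urethra and 2.85, 1.87 and 1.82 CPM in E18.5 bladder. The lowest urethral library was far above the highest bladder library, and the log2 fold change was 5.16 (SE 0.37). In E14.5 urethra it had 20.3 and 11.1 CPM in replicates 1 and 3 but 0.820 and 1.18 CPM in replicates 2 and 4, against 1.05, 1.45, 0.966 and 0.269 CPM in E14.5 bladder.

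Myh8 (chromosome 11, 67277124 to 67308634), the perinatal myosin heavy chain of the same gene cluster, had 19.6, 29.4 and 18.3 CPM in E18.5 urethra and 22.5, 23.0 and 9.69 CPM in E18.5 bladder. The tissues overlapped, with a log2 fold change of 0.35 (SE 0.32), which turned to -0.12 with scaling by 7 pan-epithelial genes. At E14.5 Myh8 had 4.22, 0.451, 2.17 and 0.709 CPM in urethra and 0.0569 to 0.460 CPM in bladder.

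Mylpf (chromosome 7, 127208890 to 127214298), the regulatory light chain of fast fibres, had 15.1, 30.1 and 11.8 CPM in E18.5 urethra and 1.86, 1.10 and 1.72 CPM in E18.5 bladder, with a log2 fold change of 3.67 (SE 0.41). Myl1 (chromosome 1, 66924295 to 66945404), the essential light chain of fast fibres, had 8.75, 13.8 and 7.35 CPM in E18.5 urethra and 0.523, 3.39 and 1.38 CPM in E18.5 bladder, with a log2 fold change of 2.54 (SE 0.56). Both had every urethral library above every bladder library at E18.5 and overlapped at E14.5.

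Myog (chromosome 1, 134289989 to 134292548) had 12.7, 31.8 and 13.4 CPM in E18.5 urethra and 0.476, 0.266 and 0.934 CPM in E18.5 bladder, with a log2 fold change of 5.19 (SE 0.55). At E14.5 it had 6.42, 0.902, 4.66 and 2.21 CPM in urethra and 0.962, 0.626, 3.22 and 0.605 CPM in bladder. Myog in E18.5 bladder thus overlapped with E14.5 bladder, while every E18.5 urethra library lay above every E14.5 urethra library.

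Taken per length, Acta1 and Actc1 were the most abundant of the 10 in both E18.5 tissues, with mean levels of 128 and 93.2 CPM per kilobase in urethra and 586 and 447 CPM per kilobase in bladder. In E18.5 urethra Mylpf (17.9), Tnnc2 (13.8), Myog (12.9), Myh3 (12.3), Tnnt3 (10.3 CPM per kilobase) and then Ckm followed, and the libraries of each of these 6 genes overlapped with those of its neighbours in the order. In E18.5 bladder Ckm (50.4), Tnnt3 (31.4) and Tnnc2 (23.3) came next, and Myog (0.374) and Myh3 (0.360 CPM per kilobase) came last. The order of the E14.5 urethra was led by Actc1 (8.90), with Mylpf (2.47), Myog (2.37) and Acta1 (2.21 CPM per kilobase) after it.

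At E18.5, where the design asks how the tissues differ near birth, 4 of the 10 genes passed the threshold as higher in urethra (Myh3, Myl1, Mylpf and Myog) and 4 as lower (Acta1, Actc1, Tnnt3 and Ckm). The threshold is a Benjamini-Hochberg adjusted p under 0.05 in edgeR's quasi-likelihood test over all genes, and 18.6% of the 17513 genes tested were higher and 19.3% lower. Urethral libraries lay wholly above in 4 genes, wholly below in 3 and overlapped in 3. The share of all genes without overlap was not counted, here or in the comparisons below. Since the genes were picked on these libraries, nothing is read from these counts, nor from those in the other comparisons below.

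Genes of the smooth muscle and of several, but not all, other cell types below the epithelium were also lower in E18.5 urethra. All 10 smooth muscle genes were lower in E18.5 urethra than in E18.5 bladder, among them Acta2 (log2 fold change -2.16, adjusted p = 0.00202), Myh11 (-3.47, adjusted p = 0.00027) and Des, the intermediate filament of all muscle (-2.49, adjusted p = 0.00802). So were 8 of 9 fibroblast and mesenchyme genes, all 5 endothelial genes and 3 of 5 leukocyte genes. Of 8 nerve and Schwann cell genes 0 were lower and 0 higher (median log2 fold change 0.64), and of 5 tendon genes 1 was higher and 1 lower. Within the E18.5 bladder, replicate 1 had the highest and replicate 3 the lowest Acta1, Actc1 and Ckm, and also the highest and lowest sums of the smooth muscle, fibroblast, endothelial and leukocyte genes. For every 100 reads of Acta2 there were 43.9, 47.0 and 46.6 reads of Acta1 in E18.5 urethra and 52.2, 39.1 and 40.4 in E18.5 bladder, so this ratio overlapped between the tissues although the Acta1 level did not. For Ckm the ratio did differ: there were 19.4, 20.3 and 16.0 reads for every 100 of Myh11 in E18.5 urethra and 8.61, 7.76 and 6.83 in E18.5 bladder, without overlap. The ratio of Acta1 to Acta2 was 0.199 to 4.51 in E14.5 urethra and 0.148 to 4.01 in E14.5 bladder. Actins are near-identical in their coding parts, and how reads that match several genes were counted is not given in the sources used here. The part of such reads in the actin levels and ratios was not tested.

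By contrast, Myh3 had 68.7, 57.5 and 24.8 reads per 100 of Myh11 in E18.5 urethra and 0.110, 0.0991 and 0.178 in E18.5 bladder. The summed level of Myod1, Myf5 and Pax7 was 7.64 to 16.9 CPM in E18.5 urethra and 0.305 to 0.571 CPM in E18.5 bladder, and was 0.656 to 5.54 CPM in E14.5 urethra and 0.114 to 1.98 CPM in E14.5 bladder. Of 9 cardiac genes, Tnnt2 alone exceeded 10 CPM in E18.5 bladder (287, 202 and 117 CPM). Nkx2-5 and Nppb were at 0 in 2 and 3 of the 3 E18.5 bladder libraries, and Nppa stood at 0.0984 to 0.609 CPM in them. The part of smooth muscle, mesenchyme, vessels or leukocytes in the levels of Acta1, Actc1, Ckm and Tnnt3 was not tested.

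**Figure D2:**
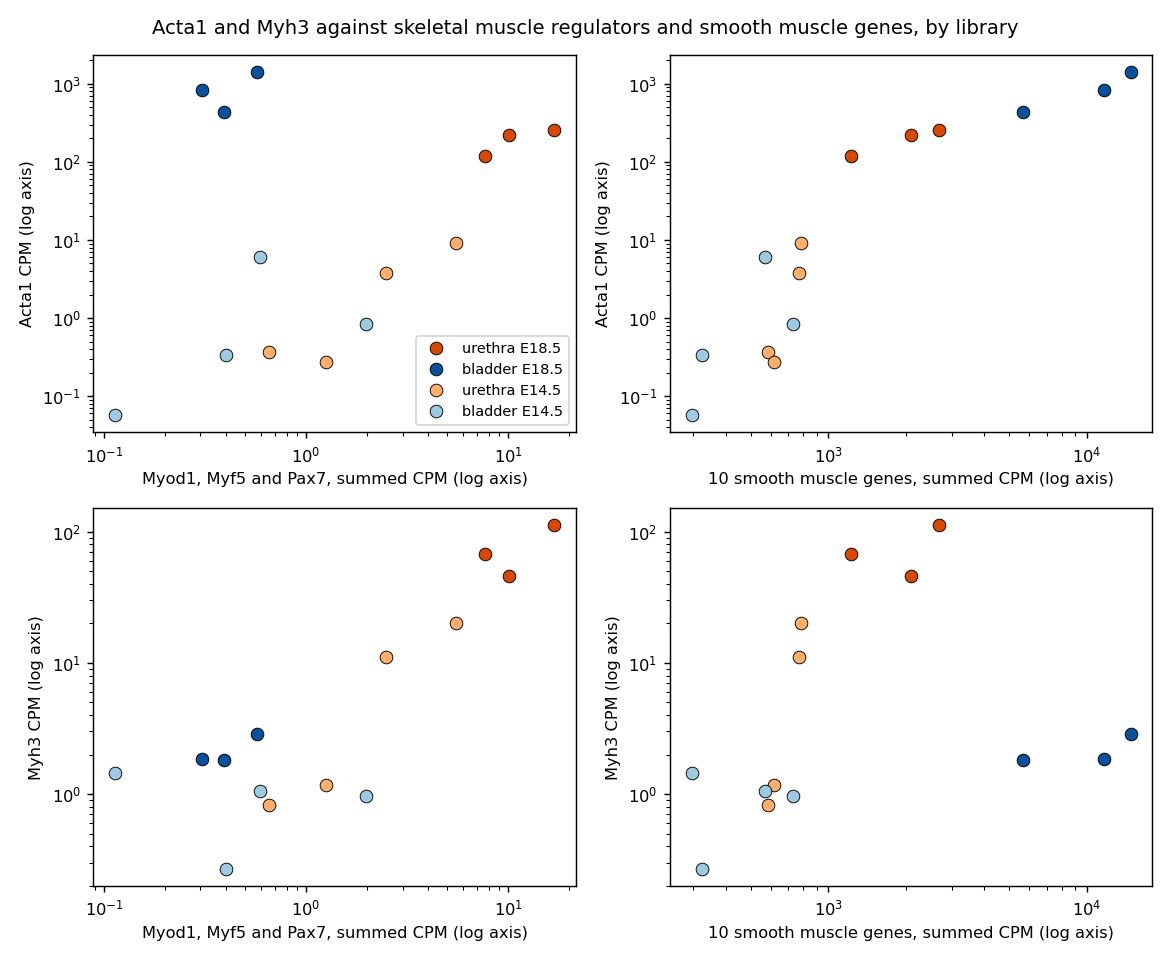
Acta1 (top) and Myh3 (bottom) in CPM against the summed CPM of Myod1, Myf5 and Pax7 (left) and of 10 smooth muscle genes (right), all on log axes, 1 point per library. The 3 E18.5 bladder libraries have the highest Acta1 beside regulator sums of 0.305 to 0.571 CPM, and Myh3 is at 1.82 to 2.85 CPM in them although their smooth muscle sums are the highest.

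Of 89 further skeletal muscle genes, 66 were tested between the tissues at E18.5, of which 35 were higher in urethra (53.0% of those tested) and 10 lower (15.2%), with a median log2 fold change of 1.88 against 0.03 over all genes. The 23 others were too low to test. The lower ones were 6 without urethra replicate 1, urethra replicate 3 or bladder replicate 1, and 17 with pan-epithelial scaling. A gene passed the filter if it was high enough in a single group. Myod1, with 2 reads in each E18.5 bladder library, and Pax7, with 0, 2 and 2, passed through the urethra and could only come out higher there. The counts, shares and medians of these genes, here and in the comparisons below, carry this bias, and nothing is read from them. Of 6 tested regulators, 5 were higher in urethra: Myod1 (log2 fold change 6.23, SE 0.52, adjusted p = 8.01e-05), Pax7 (5.38), Vgll2 (4.72), Myf5 (3.10) and Msc (2.06). Myod1 had 4.91, 10.6 and 4.72 CPM in urethra and 0.0951, 0.0761 and 0.0984 CPM in bladder. Mef2c, a partner of the myogenic factors that many other cells also use, did not pass (-0.29, adjusted p = 0.312). These tests all used edgeR's quasi-likelihood fit.

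Of 5 tested acetylcholine receptor and synapse genes 4 were higher in urethra, among them the receptor subunit Chrna1 (4.84, adjusted p = 0.000611) and its synapse adaptor Dok7 (2.02, adjusted p = 0.00528). Of 11 calcium and excitation genes 6 were higher, including the calcium pump Atp2a1 (4.70, adjusted p = 0.000158) and the release channel Ryr1 (2.04, adjusted p = 0.000267), and 1, the calcium store protein Casq2, was lower (-1.48, adjusted p = 0.00699). Of 5 genes of myoblast fusion and adhesion 3 were higher, led by the muscle cadherin Cdh15 (4.34, adjusted p = 0.000162), and Jam2, also made by blood vessels, was lower (-1.17, adjusted p = 0.00409).

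Sarcomere genes went both ways. Ttn, the giant spring protein titin, had 11.2, 16.4 and 8.41 CPM in E18.5 urethra and 0.285, 0.305 and 0 CPM in E18.5 bladder (5.91, SE 0.60, adjusted p = 0.000195). Mybph (6.42, adjusted p = 3.56e-05), a myosin binding protein, Tnni1 (4.65, adjusted p = 0.000175), the slow troponin I, and Neb (3.89, adjusted p = 0.000269), the ruler of thin filament length, were also higher in urethra. Ldb3 (-1.78, adjusted p = 0.0112) and Actn3 (-1.39, adjusted p = 0.037) of the Z disc, Myom1 (-1.78, adjusted p = 0.00461) of the M line and the embryonic light chain Myl4 (-1.14, adjusted p = 0.0318) were lower. In all, 3 of 9 thick filament genes were higher and 2 lower, 4 of 7 thin filament genes were higher, and 5 of 8 Z disc genes were higher and 2 lower.

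Energy genes divided too, with 2 of 5 tested higher in urethra and 3 lower. The oxygen carrier Mb was higher (3.62, adjusted p = 0.000784), and the glycogen phosphorylase Pygm (-2.24, adjusted p = 0.000332), the muscle enolase Eno3 (-1.54, adjusted p = 0.0289) and the respiratory subunit Cox7a1 (-1.79, adjusted p = 0.00301) were lower. Pgam2, the muscle phosphoglycerate mutase, was higher (2.66, adjusted p = 0.039), at 0.769 to 2.06 CPM in urethra and 0 to 0.492 CPM in bladder. Of 10 membrane and chaperone genes 3 were higher, led by Klhl41 (5.18, adjusted p = 0.000164), and 1, Mustn1, was lower (-1.60, adjusted p = 0.0387). Dystrophin (Dmd), shared with smooth muscle, did not pass (-0.01, adjusted p = 0.974).

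**Figure D3:**
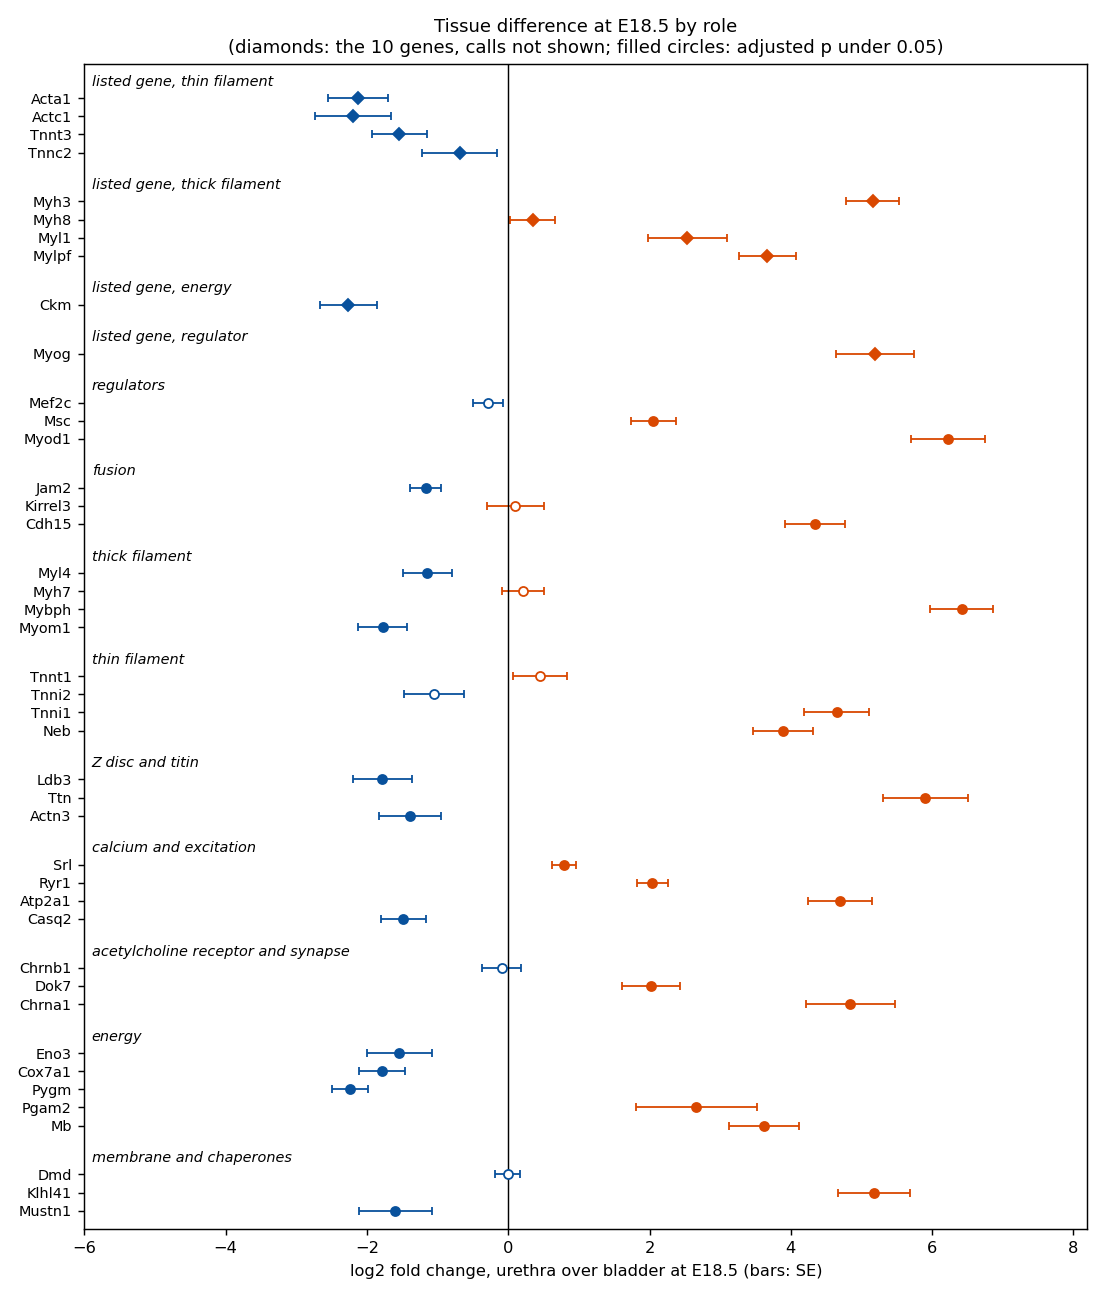
Log2 fold change of urethra over bladder at E18.5 (x axis, bars are SE) for the 10 muscle genes (diamonds, calls not shown) and the named genes of each role (circles, filled where adjusted p was under 0.05). Myog (5.19) and Myod1 (6.23) stand at the urethral end, and Acta1 (-2.13), Ckm (-2.26) and Pygm (-2.24) at the bladder end.

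At E14.5 the tissues were compared to see whether the difference is already there when both are young. Of the 10 muscle genes, 8 were high enough to be fitted and 2 passed as higher in urethra (Myh3 with a log2 fold change of 3.17, SE 1.04, and Myh8 with 2.98, SE 0.83), against 20.9% higher and 23.1% lower among 16697 genes. All 10 overlapped between the tissues. Without urethra E14.5 replicates 1 and 3 the log2 fold change was 0.11 for Myh3, 1.27 for Myh8, 0.24 for Myog (1.43 with all libraries), -0.28 for Actc1 (1.13 with all) -0.52 for Mylpf (0.69 with all) and -2.48 for Acta1 (0.91 with all). The other side also had its lone libraries: Acta1 was at 6.08 CPM in bladder replicate 1 and Myog at 3.22 CPM in bladder replicate 3.

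Replicates 1 and 3 of the E14.5 urethra differed in other tissues' genes as well. Replicate 1 had an epithelial sum of 7810 CPM and a fibroblast and mesenchyme sum of 1940 CPM, and replicate 3 had 3125 and 5597 CPM, against 4467 and 2789 CPM in replicate 2 and 3840 and 3196 CPM in replicate 4. Their smooth muscle sums were 781 and 766 CPM, against 583 and 615 CPM. The part of these differences in the muscle genes was not tested.

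Of the 89 further muscle genes, 39 were tested at E14.5 and 50 were too low to test. Of the 39, 9 were higher in urethra (23.1%) and 4 lower (10.3%), shares near those of all genes or below them. The median log2 fold change of the 39 was 0.86, against 0.03 over all genes. Higher were the fusion genes Kirrel3 (2.61, adjusted p = 0.00116) and Jam2 (1.62, adjusted p = 0.021), the regulator Msc (2.21, adjusted p = 0.0102), Ttn (2.61, adjusted p = 0.0146), Ryr1 (1.82, adjusted p = 0.000465), Hrc, Eno3, Smyd1 and Dmd (1.07, adjusted p = 0.000635). Lower were Tnni2, the fast troponin I (-3.04, adjusted p = 0.00141), Cox7a1 (-2.26, adjusted p = 0.000495), Neb (-2.23, adjusted p = 0.0335) and the slow myosin heavy chain Myh7 (-1.85, adjusted p = 0.00751). Neb stood at 0.246 to 4.05 CPM in urethra and 4.42 to 11.4 CPM in bladder at that stage, the other way round from E18.5. Myod1 had 0.615 to 3.74 CPM in urethra and 0.114 to 1.75 CPM in bladder and did not pass (1.60, adjusted p = 0.153). The count of higher genes was 19 without bladder replicate 3, and 6 without urethra replicate 3 or without bladder replicate 4. With scaling by pan-epithelial genes 31 were higher, a scaling that set the median of all genes at 1.02.

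Between the stages, all 10 muscle genes stood higher in E18.5 urethra. All 10 genes had every E18.5 library above every E14.5 library, and 9 passed as higher, all but Myl1, against 17.3% higher and 15.7% lower among 18286 genes. The log2 fold change of E18.5 over E14.5 was 5.87 (SE 1.14) for Acta1, 3.39 (SE 0.84) for Actc1, 3.17 (SE 0.82) for Myh3, 2.86 (SE 0.51) for Mylpf, 2.45 (SE 0.68) for Myog and 1.67 (SE 0.66) for Myl1. Without urethra E14.5 replicates 1 and 3 these were 9.28, 4.84, 6.25, 4.09, 3.67 and 2.15. Ckm had 2834 reads in the 3 E18.5 libraries, against 6 reads in the 4 E14.5 libraries, all 6 in replicate 1.

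Of the 89 further genes, 40 of 69 tested were higher at E18.5 in urethra (58.0%) and 2 lower (2.90%), with a median of 1.89 against 0.00 over all genes. They included 9 of 11 thick filament, 5 of 7 thin filament and 7 of 8 Z disc genes, with Myl4 (3.59, adjusted p = 0.00174), Tnni2 (3.30, adjusted p = 0.000571) and Ttn (2.60, adjusted p = 0.00783). Among regulators 2 of 6 passed, Pax7 (3.58, adjusted p = 0.00579) and Myf5 (2.55, adjusted p = 0.0344), while Myod1 did not (1.84, adjusted p = 0.0609). Kirrel3 (-1.09, adjusted p = 0.0361) and Srl (-0.58, adjusted p = 0.0112) were lower. Without urethra E18.5 replicate 2, the library with the most muscle RNA, 23 genes were higher. Of the smooth muscle genes 6 of 10 were also higher at E18.5.

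In bladder, some of the 10 genes stood higher at E18.5. Acta1 (8.92, SE 1.29), Actc1 (6.76, SE 0.96), Tnnt3 (6.88, SE 0.62), Tnnc2, Myh8 (6.26, SE 0.75) and Ckm passed as higher at E18.5, and Myh3 (1.2, SE 0.93), Myl1 (0.77, SE 0.70), Mylpf (-0.09, SE 0.53, or 0.44 with pan-epithelial scaling) and Myog (-1.26, SE 0.80) did not, against 19.9% higher and 20.4% lower among all genes. Every E18.5 library lay above every E14.5 library in 7 genes, the 6 and Myh3, and 3 overlapped. Ckm had 9972 reads in the 3 E18.5 libraries, against 10 reads in the 4 E14.5 libraries, and Tnnc2 had 1259 reads, against 5 reads.

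Of the 89 further genes, 28 of 69 tested were higher at E18.5 in bladder (40.6%) and 3 lower (4.35%), with a median of 1.21. Casq2 (4.15, adjusted p = 6.87e-06), Ldb3 (4.36, adjusted p = 1.18e-05), Pygm (3.67, adjusted p = 2.44e-05), Mustn1 (4.87, adjusted p = 4.34e-05) and Myl4 (5.47, adjusted p = 9.09e-05) were among the higher ones. Mb (-4.13, adjusted p = 9.08e-06), Neb (-3.63, adjusted p = 0.00212) and Srl (-1.05, adjusted p = 0.000205) were lower. Of 6 regulators 1 was higher, Mef2c (1.36, adjusted p = 0.0148). All 10 smooth muscle genes, 7 of 9 fibroblast and mesenchyme genes, all 5 endothelial genes and 4 of 5 leukocyte genes were higher at E18.5 in the same libraries, and their part in the muscle genes was not tested.

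**Figure D4:**
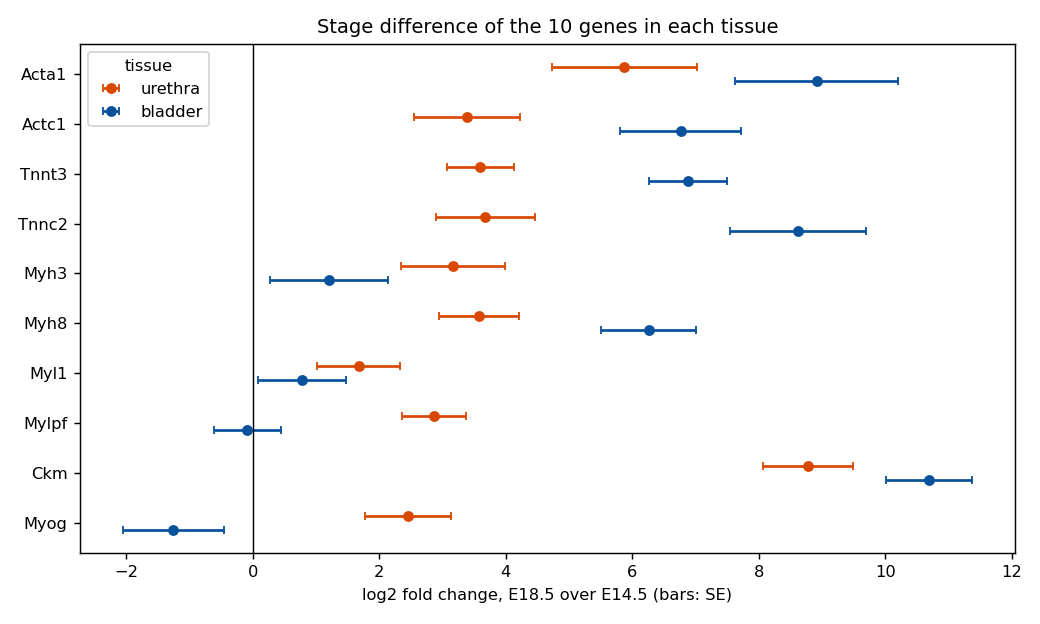
Log2 fold change of E18.5 over E14.5 (x axis, bars are SE) for the 10 muscle genes in urethra (orange) and bladder (blue). Myog is at 2.45 in urethra and -1.26 in bladder, whereas Tnnc2 is at 3.68 in urethra and 8.63 in bladder; both values of Ckm and the bladder value of Tnnc2 rest on 10 or fewer E14.5 reads.

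Whether the tissues changed differently with stage was asked by the interaction, the stage change in urethra minus that in bladder. Of the 10 genes Mylpf (2.95) and Myog (3.71) passed as higher and Tnnt3 (-3.28) and Tnnc2 (-4.95) as lower, against 10.7% higher and 12.2% lower among all genes. For Acta1 it was -3.04 with all libraries and 0.34 without urethra E14.5 replicates 1 and 3, and for Tnnc2 it was then -3.12, for Myog 4.88 and for Mylpf 4.15. Myh3 had 1.97 with all libraries and 5.02 without those replicates, and Ckm had -1.91 and 1.94. Of the further genes 10 of 69 were higher (14.5%) and 11 lower (15.9%), with a median of 0.47 against 0.01 over all genes. The higher ones were 6 without urethra E18.5 replicate 2 or without bladder E18.5 replicate 1, and 16 without urethra E14.5 replicates 1 and 3 together. Neb (6.10, adjusted p = 0.00192), Myod1 (4.58, adjusted p = 0.0203), Klhl41 (4.23, adjusted p = 0.0042) and Mb (3.90, adjusted p = 0.000354) had positive values; for Mb the stage change was in bladder (-4.13), and in urethra it did not pass (-0.23, adjusted p = 0.559). Jam2 (-2.82, adjusted p = 0.00499), Eno3 (-2.56, adjusted p = 0.011), Myom1 (-2.51, adjusted p = 0.0188) and Ldb3 (-2.46, adjusted p = 0.0085) had negative values.

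The make-up of the muscle transcripts was followed as shares within pairs of related genes, each count divided by gene length. Acta1 made up 54.6 to 63.4% of Acta1 and Actc1 in E18.5 urethra and 52.6 to 67.4% in E18.5 bladder, against 4.04 to 23.2% in E14.5 urethra and 2.84 to 29.6% in E14.5 bladder. The skeletal actin share was thus alike between the tissues at each stage and did not overlap between the stages. Myh8 made up 11.9 to 17.1% of Myh3 and Myh8 in E18.5 urethra but 73.3 to 86.4% in E18.5 bladder, against 9.15 to 23.6% and 1.98 to 27.8% in E14.5 urethra and E14.5 bladder. The embryonic myosin thus remained the main one of the pair in the urethra at both stages.

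The troponin shares also stood apart. Tnnt3 made up 49.2 to 54.3% of Tnnt3 and the slow Tnnt1 in E18.5 urethra and 77.1 to 86.1% in E18.5 bladder, and Tnnc2 made up 54.9 to 57.8% of Tnnc2 and the slow Tnnc1 in E18.5 urethra and 85.2 to 91.4% in E18.5 bladder. Tnni2, the fast form, made up 55.5 to 59.2% of Tnni1 and Tnni2 in E18.5 urethra and 29.2 to 54.6% in E14.5 urethra, against 97.4 to 99.5% in E18.5 bladder and 86.6 to 98.6% in E14.5 bladder. Of reads not divided by length, Tnni2 made up 34.2 to 37.6% and Tnnt3 41.0 to 46.0% of their pairs in E18.5 urethra. Which form was the main one there thus depended on the division by length. The bladder share of Tnni2 was thus already high at E14.5, unlike those of Tnnt3 (0.74 to 19.3%) and Tnnc2 (0 to 32.8%). The difference in urethra of 16.8 percentage points (n = 3 and 4) had an exact two-sided permutation p of 0.0571, the smallest that 3 against 4 libraries allow, and every E18.5 library was above every E14.5 library. The fetal subunit Chrng made up 31.2 percentage points more of Chrng and Chrne in E18.5 than in E14.5 urethra, with an exact two-sided permutation p of 0.229. Leaving out urethra E18.5 replicate 2 gave 18.6 points, and urethra E14.5 replicate 1 gave 47.4 points. Adjusted over these 2 tests by Benjamini-Hochberg, the p-values were 0.114 and 0.229.

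**Figure D5:**
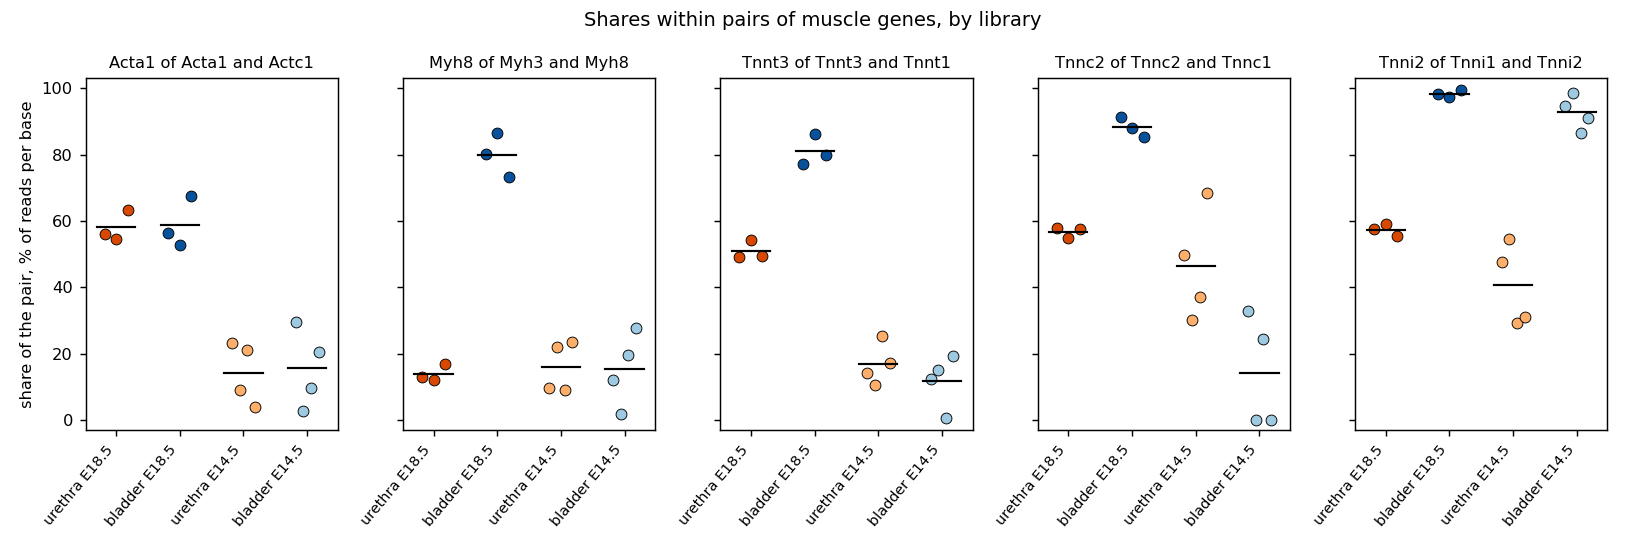
Share of the first gene in 5 pairs of muscle genes, in percent of reads per base, by library (points) with the group mean (line). The Acta1 share is 52.6 to 67.4% in all 6 E18.5 libraries, whereas the Myh8 share is 11.9 to 17.1% in E18.5 urethra and 73.3 to 86.4% in E18.5 bladder.

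Over the 14 libraries, the 10 other genes whose log2 CPM was most like the mean of the 10 standardised profiles included Ifi202b (Pearson r 0.98, Spearman rho 0.97), Tnnc1 (0.97 and 0.90), Tmem173, Nupr1, Rab7b, Myom2, Spop, Relb and F3, with r of 0.95 to 0.97 for those after Tnnc1. The libraries fall into 4 groups, which these values share, and 2 of the 10 are in the muscle lists. Against Myog alone, a ranking added after the split was seen, the nearest were Cdh15 (0.98 and 0.95) and Myod1 (0.97 and 0.96), and against Acta1 alone they were Myl4 (0.98 and 0.96), Gm13010 and Tnnt2 (0.97 and 0.95), with the smooth muscle gene Tagln among the first 10.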

How the data were processed

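Poly(A) RNA was made into directional libraries and sequenced in pairs on a NovaSeq, per the labels' protocols. Per the submitters' processing notes, bcl2fastq, SAMtools 1.9 and HISAT2 2.2.1 were used with GRCm38. Which counter, strand option and gene models were used is not given in the sources used here. The deposited values are raw counts per gene symbol beside a gene length, in 2 tables of 55228 genes each. Library totals of 21.1M to 36.8M counts set the precision. Promoter sequences are RefSeq's (GRCm38.p6).

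The groups came from the labels. Genes passing filterByExpr were tested with edgeR 4.0.16 in R 4.3.3 (TMM, quasi-likelihood F test, Benjamini-Hochberg adjusted p under 0.05 over all genes), within each stage for the tissues (8 or 6 libraries) and over 14 libraries for the stages and the interaction. CPM used TMM sizes over all 14 libraries, and log2 CPM a prior count of 2. Shares were tested in SciPy 1.17.1. The pipeline was tested on simulated data. Members, lists, tests and rules were chosen with earlier results of these data known. Named genes were the 10 members, and per muscle list the highest mean CPM, the smallest adjusted p in each tissue comparison and any called gene against the majority; the 10 genes most like the members; and Epcam, Col1a1, Acta2, Myh11 and Des. The few others were named after their values were seen, and 1 gene that the rule names is not reported here. Alternatives were DESeq2 1.42.0, its size factors, no filter, leaving out each library, the replicate number as a block, scaling by 7 pan-epithelial genes and all 14 libraries in 1 fit; leaving out urethra E14.5 replicates 1 and 3 together was added after seeing the data.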

Additional observations from a re-analysis of the deposited data

Results flagged for a closer look

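Among the 4 libraries of each E14.5 group, 6 levels stood far from the rest of their group. They were Acta1 at 6.08 CPM, Srl at 24.6 CPM and Pgam2 at 0.0620 CPM in bladder replicate 1, Myog at 3.22 CPM and Ldb3 at 1.56 CPM in bladder replicate 3, and Ckm at 0.264 CPM in urethra replicate 1, where the other 3 libraries had 0 reads. Chance flags about 1 in 20 groups. The rule was run over the members and the other named genes of the muscle lists, in both E14.5 groups, so some flags are expected by chance alone.

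The stage change differed between urethra and bladder, by the interaction in edgeR, in 18 named genes. Some were named for their adjusted p or calls in these same libraries, so nothing is read from that number. Over all genes 10.7% were higher and 12.2% lower in the interaction. The log2 stage change in urethra minus that in bladder was positive for Neb (6.10), Myod1 (4.58), Klhl41 (4.23), Mb (3.90), Atp2a1 (3.79), Ttn (3.27), Tnni1 (3.09), Myh7 (2.03) and Tnni2 (1.97). It was negative for Jam2 (-2.82), Eno3 (-2.56), Kirrel3 (-2.54), Myom1 (-2.51), Mustn1 (-2.49), Ldb3 (-2.46), Pygm (-2.09), Casq2 (-2.0) and Dmd (-1.11).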

How the results depend on the processing

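Counts are of the 89 further muscle genes. At E14.5, 9 were higher in urethra; this was 15 with no filter, 14 with DESeq2, 15 with the replicate block, 31 with pan-epithelial scaling, 23 with all 14 libraries in 1 fit, and 6 to 19 leaving out 1 library (19 without bladder E14.5 replicate 3; 6 without urethra E14.5 replicate 3 or bladder replicate 4). At E18.5, 10 were lower in urethra, 17 with pan-epithelial scaling and 6 to 13 leaving out 1 library (6 without urethra replicate 1, urethra replicate 3 or bladder replicate 1). In urethra, the 40 higher at E18.5 ranged from 23 to 44 leaving out 1 library, and the 2 lower became 1 with no filter, 6 with pan-epithelial scaling, 1 without both urethra E14.5 replicates 1 and 3, and 0 to 2 leaving out 1 library. In bladder the 3 lower at E18.5 became 5 with DESeq2. For the interaction, the 10 higher became 5 with pan-epithelial scaling, 16 without both urethra E14.5 replicates 1 and 3, and 6 to 14 leaving out 1 library (6 without urethra E18.5 replicate 2 or bladder E18.5 replicate 1); the 11 lower became 23 with pan-epithelial scaling and 8 to 14 leaving out 1 library. Except where the construction shows it, the cause was not tested. Pan-epithelial scaling set the all-gene median log2 fold change at 1.02 (E14.5), -0.39 (E18.5), -0.84 (urethra stage), 0.53 (bladder stage) and -1.36 (interaction), and turned Dmd in urethra by stage to -0.82 and the interactions of Srl and Ryr1 to -0.93 and -1.19. Whether the replicate numbers pair the tissues by litter is not settled. Deviations of same-numbered libraries correlated at 0.15, 0.13, 0.39 and -0.10 at E14.5 and at 0.14, -0.15 and -0.19 at E18.5. Not every library correlated best with its own number, and so few values cannot decide it. As a replicate block the numbers gave 27 higher genes by stage in urethra, but that block joins E14.5 and E18.5 libraries, which are different litters. The share of Tnni2 ranged from 13 to 21.4 points and that of Chrng from 18.6 to 47.4 points leaving out 1 library. Requiring 20 reads of the pair gave no value for Chrng. Depth limits the stage differences of Ckm in both tissues and of Tnnc2 in bladder, which rest on 10 E14.5 reads or fewer per tissue.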
